A study of Mus musculus with 33 samples.

Results

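The 12-minute HSF1 regions inside genes are places in wild type embryonic fibroblasts of the mouse (MEFs, connective tissue cells cultured from embryos) where HSF1 was mapped within a gene, away from its ends, from the first time point after heat shock. They numbered 450 of 3455 regions found with both HSF1 antibodies at 60 min of heat shock. A region here is a run of peaks in which a peak of the antibody labelled CS (Cell Signaling #4356) and a peak of the antibody labelled MM (a gift from the Morimoto lab) overlapped by at least 1 bp. The members were chosen by their measured peaks: a region of the 60 min lists that overlapped such a region of the 12 min lists, overlapped no CS or MM peak of the lists made before heat shock, and had its summit inside an annotated gene and more than 1 kb from every gene end. The labels do not state the target of CS and MM, and both were taken as HSF1 antibodies because the file headers name an Hsf1 ChIP-seq. The summit is the midpoint of the CS and MM summits of the peaks with most tags.

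Chromatin immunoprecipitation with sequencing (ChIP-seq) was done on wild type and HSF1-/- MEFs of the 129Sv.BALB/c strain background, without heat shock or 12 and 60 min into it. Wild type cells were also mapped for SRF with antibody D71A9 #5147. Each genotype, time and antibody has 1 peak list. The lists hold no expression values, so the fibroblast label could not be checked on marker genes, and no error between replicates can be given. Intervals below are exact (Clopper-Pearson) 95% binomial intervals and cover counting error only. The tags left after removal of duplicates numbered, in M (mega), 26.3 (CS) and 17.7 (MM) in the wild type libraries of 12 min and 19.6 (CS) and 14.0 (MM) at 60 min, against 5.18 to 15.6 in the HSF1-/- libraries and 0.751 to 1.55 in the SRF libraries.

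HSF1 is the transcription factor that sets off the heat shock response. In unstressed cells it is held largely as an inactive monomer, and on heat stress it forms trimers that bind heat shock elements, inverted repeats of the unit nGAAn. It is best known for binding just upstream of chaperone genes. SRF is a factor that binds the CArG box and is known for cytoskeletal and immediate early target genes.

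In 6 members the peak summit lay within 10 bp of a 2-unit heat shock element, just before a transcript start that is annotated inside the host gene. Windows of 300 bases around transcript starts (250 before and 50 after, RefSeq, GRCm38.p6) were at hand for 32851 starts, and 9 of them held the summit of a member. Searched were TTCNNGAA and GAANNTTC, each of which reads the same on both strands. They can overlap each other by a GAA or TTC unit. One or the other was present in 6 of the 9 windows (66.7%, interval 29.9% to 92.5%), against 15.1% of all 32851 windows. The windows holding the summit of a 12-minute region at a gene end (chosen in the same way, but with the summit within 1 kb of one) had one in 48 of 73 (65.8%, interval 53.7% to 76.5%). A match is a description of the letters and no measurement of binding. Over all 40 windows that touched a member, in 34 members, 11 held a motif (27.5%, interval 14.6% to 43.9%), an interval that includes the 15.1% of all windows. Sequence of members away from such windows was not analysed here.

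These stretches are shown because they put the letters of the element under a measured summit. They run 5′ to 3′ on the strand of the gene and lie before the internal transcript start. Capitals mark the heat shock elements, and in Gm35853 a TTCNNGAA and a GAANNTTC overlap in 1 run.
Dnajb4: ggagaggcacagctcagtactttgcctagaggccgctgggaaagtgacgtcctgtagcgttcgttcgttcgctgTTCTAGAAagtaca
Csk: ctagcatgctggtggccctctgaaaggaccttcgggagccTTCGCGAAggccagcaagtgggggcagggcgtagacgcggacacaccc
Aptx: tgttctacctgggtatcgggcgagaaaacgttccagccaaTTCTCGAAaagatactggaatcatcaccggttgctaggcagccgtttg
Dcun1d5: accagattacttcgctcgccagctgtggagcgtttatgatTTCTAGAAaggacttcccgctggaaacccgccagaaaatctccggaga
Gm35853: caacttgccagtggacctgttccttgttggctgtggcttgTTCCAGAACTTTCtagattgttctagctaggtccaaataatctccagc
Gm13816: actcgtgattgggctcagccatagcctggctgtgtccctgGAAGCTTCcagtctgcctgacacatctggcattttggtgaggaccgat

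The Dnajb4 stretch (minus strand, chr3:152193846-152193933) ends at the base before the start, and its element begins 14 bases before that start. Dnajb4 encodes a cytosolic Hsp40 cochaperone. Its region held 104 CS and 60 MM tags at 12 min, and 125 CS and 65 MM tags at 60 min. The element lay 5 bp from the 60 min summit.

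The other stretches lie at chr9:57645728-57645815 (Csk, minus strand), chr4:40703212-40703299 (Aptx, minus strand), chr9:7184337-7184424 (Dcun1d5, plus strand), chr15:101395570-101395657 (Gm35853, plus strand) and chr2:92751317-92751404 (Gm13816, plus strand). Csk encodes a kinase that restrains Src, Aptx a DNA repair enzyme and Dcun1d5 a protein of cullin neddylation. Their elements began 122, 65 and 128 bases before the start and lay 10, 9 and 10 bp from the summit. Csk held 171 CS and 123 MM tags at 12 min and 317 and 263 at 60 min. Aptx held 98 and 56 at 12 min and 261 and 169 at 60 min. Dcun1d5 held 58 and 38 at 12 min and 99 and 79 at 60 min. Gm35853 and Gm13816 are names of gene models, with elements 6 and 8 bp from the summit. These genes were named after their values were seen, Dnajb4 by rule.

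The 3 remaining windows with a member's summit, in Esr1 (an estrogen receptor), Skp1 (a subunit of SCF ubiquitin ligases) and Ifitm2 (an interferon-induced membrane protein), held neither motif. That says only that these letters are not in those 300 bases. None of the 9 windows held the AP-1 motif TGANTCA, present in 7.81% of all windows, or a CArG box, present in 1.63%. With 9 windows the interval of each reaches 33.6%, so these counts cannot tell an absence from those shares. Among the 40 windows that touched a member, 1 held the AP-1 motif (interval 0.0633% to 13.2%). A CArG box was in 2 of the 40 (interval 0.611% to 16.9%). Each of these intervals includes the share of all windows.

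Internal transcript starts lay near a small part of the regions. Of the 435 members on chromosomes with windows, 27 had an annotated transcript start within 1 kb of the summit (6.21%, interval 4.13% to 8.90%). Among regions inside genes that overlapped no shared region of 12 min the count was 27 of 1118 (2.42%, interval 1.60% to 3.49%), and the intervals do not overlap. The share of all 60 min regions was 14.5%, which includes the regions at gene ends. The limit of 1 kb from a gene end was part of the choice of members, but an internal start was not.

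The regions first found at 12 min split into 450 inside genes, 249 within 1 kb of a gene end and 299 between genes. Regions that overlapped neither a shared region of 12 min nor a peak made before heat shock are called 60 min only here, although a 12 min peak of 1 antibody may lie under them. They numbered 2221, of which 1146 lay inside genes. Of 236 regions that overlapped a peak made before heat shock, 82 lay inside genes. In the 12 min lists, 518 regions lay inside genes by the same limit and overlapped no earlier peak. Of these 451 overlapped a 60 min region, and 67 did not, 32 of the 67 lying over a 60 min peak of 1 antibody.

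In the 60 min lists the members had the following values, which entered their choice and are a description. Tags ranged from 37 to 832 with CS (median 141) and from 14 to 643 with MM (median 66.5). Fold enrichment over the local background, as the authors' peak caller gave it, ranged from 11.2 to 274 with CS (median 55.3) and from 8.15 to 241 with MM (median 35.1). The members thus spanned more than an order of magnitude among themselves. The 1146 regions inside genes of 60 min only had a median CS fold of 31.1 and MM fold of 20.9, and medians of 62 CS and 31 MM tags. The members stood near the 12-minute regions between genes, whose median CS fold was 55.2, and above those at gene ends at 40.4, although the latter held more CS tags (median 175). The 82 regions inside genes that were marked before heat shock had a median CS fold of 97.9.

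**Figure D1:**
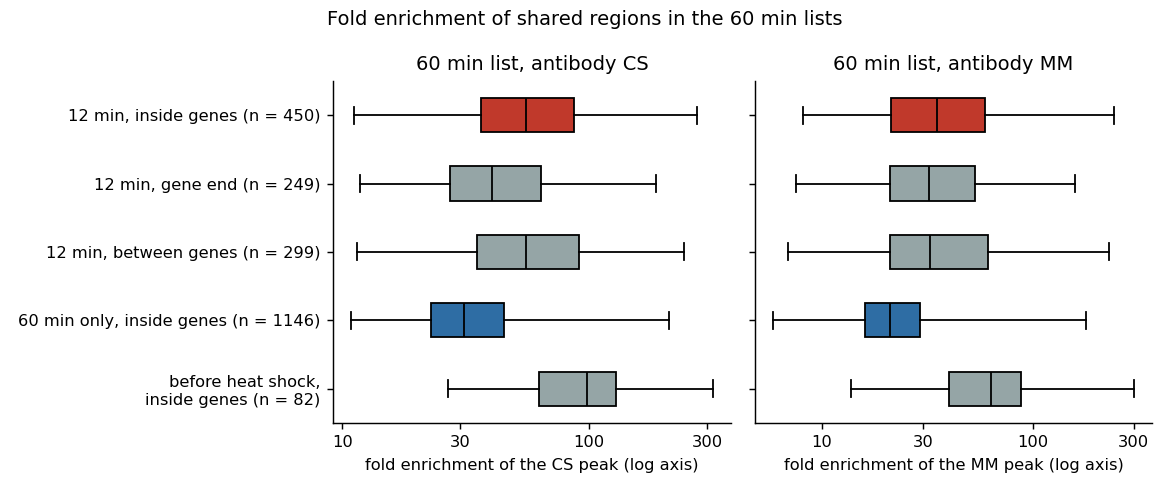
Fold enrichment (horizontal log axis) of the CS and MM peaks of shared regions in the 60 min lists, by the time a region was first found and by its position. Boxes span the quartiles with the median as a line and whiskers reach the lowest and highest region; the 12-minute regions inside genes (red, median 55.3 with CS) lie to the right of those of 60 min only (blue, median 31.1).

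In the 12 min lists the members were close to the rest of their list. They held 22 to 478 CS tags (median 69) and 15 to 344 MM tags (median 40.5), where all 1412 regions of that time had medians of 79 and 45. Their median fold was 27.6 with CS and 17.6 with MM, against 27.9 and 17.9 over all 12 min regions. At gene ends the 12 min regions held more tags, with a median of 114 for CS, at a CS fold of 26.1. Values of the 12 and 60 min lists are not on 1 scale and are given side by side only.

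Most members had their summit at the same place in both lists. In 438 of 450 members the summits of 12 and 60 min lay within 100 bp of each other, with a median shift of 14 bp and a largest one of 1507 bp. The CS and MM summits of 60 min lay within 100 bp of each other in 442 members, with a median gap of 16 bp. The median width was 780 bp at 12 min and 1159 bp at 60 min, and 428 members had the wider region at 60 min. The fragment lengths that the peak caller estimated were 128 bp (CS) and 107 bp (MM) at 12 min and 161 and 114 bp at 60 min, and their part in the widths was not tested. In the lists made before heat shock the estimates were 45 bp (CS) and 40 bp (MM). Their part in which regions overlapped no earlier peak was not tested.

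The order of the members by tags was closer between antibodies than between times. Across the 450 members, Spearman's correlation between CS and MM tags was 0.89 at 60 min and 0.84 at 12 min, and the lists of a time share their IgG control. Between 12 and 60 min it was 0.55 for CS tags and 0.53 for MM tags. CS tags and width of the same regions had a Spearman's correlation of 0.71 at 60 min. A false discovery rate of 5% or less with both antibodies was given by the authors to 433 members at 60 min (96.2%). The share was 83.4% of all 60 min regions, 75.6% of 60 min only regions inside genes and 96.8% of 12-minute regions at gene ends. At 12 min it was given to 323 of the 450 members (71.8%), so the rest did not reach it with both antibodies at that time.

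**Figure D2:**
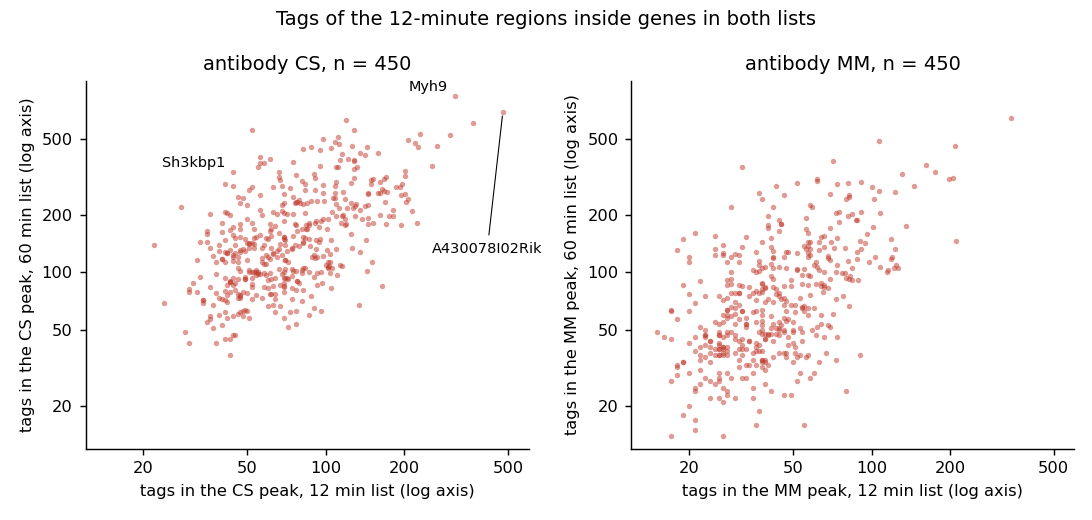
Tags in the CS peak (left) and MM peak (right) of each of the 450 members, with the 12 min list on the horizontal and the 60 min list on the vertical log axis. Each point is 1 region; Myh9 and A430078I02Rik lie at the upper end in both lists, and Sh3kbp1 holds 44 CS tags at 12 min and 335 at 60 min.

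Of the 100 regions with the best mean of CS and MM fold ranks at 60 min, 24 were members, which made up 450 of the 3455 ranked regions. The median of that mean rank (lower is better) was 1115 for the members and 1081 for 12-minute regions between genes. For regions inside genes that were marked before heat shock it was 438. The first member was in Sh3kbp1, an adaptor of receptor endocytosis (chrX:159837070-159838186), with 44 CS and 37 MM tags at 12 min and 335 CS and 261 MM tags at 60 min. Its fold enrichment at 60 min was 247 with CS and 241 with MM, and it lay 138321 bp from the nearest gene end. The second was in Otogl, a gene of an inner ear matrix protein (chr10:107899364-107900813), with 61 and 55 tags at 12 min and 393 and 138 at 60 min. Both were in the lower part of the members by CS tags at 12 min, below the median of 69, and in the upper part at 60 min.

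Ldlrad4, an inhibitor of TGF-beta signalling, followed with 56 CS and 29 MM tags at 12 min and 375 and 219 at 60 min. Sdc2 encodes syndecan-2, a cell surface heparan sulfate proteoglycan, and held 149 and 69 tags at 12 min and 305 and 170 at 60 min (chr15:33014630-33015756). Mrps23, of the small subunit of the mitochondrial ribosome, held 113 and 91 at 12 min and 468 and 298 at 60 min. Sdc2 and Mrps23 stood above the members' medians of CS and MM tags in both lists. So did Magi1, Mansc1, Gipc2 and Gm30073 among the first 12, which were picked by fold rank at 60 min. Nrg1, a ligand of ErbB receptors, held 50 and 28 at 12 min and 224 and 114 at 60 min. Niban1, a stress-responsive gene, held 47 and 30 at 12 min and 232 and 125 at 60 min. Magi1, a scaffold of cell junctions, held 128 and 71 at 12 min and 555 and 380 at 60 min. The other 4 of the first 12 were in Mansc1, Gipc2, 5930403N24Rik and Gm30073, with CS folds of 171 to 219 at 60 min.

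By tags, not fold, other members led. A region in Myh9, the heavy chain of a non-muscle myosin (chr15:77797737-77802314), held 313 CS and 107 MM tags at 12 min and 832 CS and 485 MM tags at 60 min. It was the widest member at 4578 bp, and its CS fold was 45.2. The long non-coding gene A430078I02Rik held 478 and 344 tags at 12 min and 686 and 643 at 60 min. Rnf150, a RING finger protein, held 120 and 80 at 12 min and 625 and 242 at 60 min in its leading region. Gm51774, a non-coding gene, held 366 and 209 at 12 min and 607 and 460 at 60 min. Ptpa, an activator of protein phosphatase 2A, held 255 and 210 at 12 min and 359 and 146 at 60 min. Col5a1, a fibrillar collagen, and A330074K22Rik, a non-coding gene, were next in width at 4400 and 3846 bp.

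The members lay in 445 genes. A protein-coding gene was the host of 381 members, a long non-coding gene alone of 66, and another kind of gene of 3. Of 21631 protein-coding genes, 351 held a member (1.62%), and 832 held a region of 60 min only (3.85%). Also, 101 of the 445 hosts held a region of 60 min only. The hosts were long genes, with a median span of 95627 bp against 17329 bp over all protein-coding genes. The hosts of 60 min only regions had a median of 100584 bp. Genes under 20 kb held a member in 0.292% of cases and genes over 200 kb in 8.79%. Per Mb of gene span the difference was smaller and went the other way, with 0.403 members in the shortest class and 0.250 in the longest. The length classes between them held 0.418, 0.503 and 0.446 per Mb, from shorter to longer, so the density did not fall steadily with length. The span counted includes the 1 kb at each gene end, where by the rule no member can lie. That is a larger part of short genes, whose median in the shortest class was 6445 bp, so their density is lowered by the rule.

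Within the host span, the distance from the nearer end was 0 to 10% of the span in 82 members (18.2%), 10 to 20% in 88, 20 to 30% in 98, 30 to 40% in 86 and 40 to 50% in 96. The limit of 1 kb from a gene end removes part of the first zone, in which the 60 min only regions, chosen under the same limit, had 16.3%. The interval of the members there (14.8% to 22.1%) holds that value. The summit lay 1014 to 306489 bp from the nearest end of any gene, with a median of 10589 bp, and 11261 bp for 60 min only regions. The farthest members were in Ptprg, a receptor tyrosine phosphatase (306489 bp), Rora, a nuclear receptor (175012 bp), and Esr1 (163363 bp). Strand was known for the hosts of only 338 members (75.1%), so the direction from the start was not analysed, and the gene table holds no exons, so exon or intron was not analysed either.

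At the 1 kb limit, the members just inside were in Zfp516 (1014 bp, 47 CS and 15 MM tags at 60 min), Spo11 (1040 bp, 51 and 38) and A330074K22Rik (1043 bp, 323 and 115). The regions just outside were in Ino80 (985 bp, 165 and 136), Azin1 (990 bp, 201 and 57) and Mns1 (997 bp, 222 and 106).

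Few hosts also had a region at a gene end, at a share like that of 60 min only regions inside genes. Of the 450 members, 19 had a host with a region within 1 kb of a gene end at 12 or 60 min (4.22%, interval 2.56% to 6.52%), and the share among 60 min only regions inside genes was 4.19%. Among regions inside genes that were marked before heat shock it was 8 of 82 (9.76%, interval 4.31% to 18.3%). With the limit for members set at 500 bp the members' share was 12.1%. The limit for gene ends stayed at 1 kb there, so a member could count as the end region of its own host. By gene, 11 of the 445 hosts had such a region at 12 min (2.47%) and 18 at 60 min (4.04%), beside 0.956% and 1.64% of all 49980 annotated genes. Before heat shock 1 host had one.

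A set of 35 hosts held more than 1 member. Apbb2, which encodes a binding partner of the amyloid precursor protein (chr5:66298725-66619064), held 4. They held 109, 93, 50 and 45 CS tags at 12 min and 246, 237, 143 and 126 at 60 min, in the same order. The first and second were 7312 bp apart. Rnf150 held 3, with 120, 83 and 66 CS tags at 12 min and 625, 271 and 317 at 60 min. Lrmda, a gene of melanocyte differentiation with a span of 1036590 bp, held 3, with 136, 63 and 125 CS tags at 12 min and 212, 127 and 158 at 60 min. In Apbb2 and Lrmda the order of CS tags was the same at both times, and in Rnf150 it was not. Sh3kbp1 held a second member with 65 CS tags at 12 min and 203 at 60 min.

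Npas4, an immediate early transcription factor of the bHLH-PAS family, held 3 members in a short span of 19087 bp (chr19:4984353-5003439). Their CS tags were 98, 126 and 71 at 12 min and 498, 134 and 94 at 60 min, and their MM tags 57, 78 and 42 at 12 min and 137, 75 and 36 at 60 min. The 3 regions began at 4992054, 5001426 and 4999127. In the first, the summits of the 2 antibodies lay 1156 bp apart at 60 min. The span is that of the gene table and covers every transcript model it joins. A member inside it can lie upstream of the start of a shorter model, and this was not analysed here. The gene is on the minus strand, and the nearest annotated transcript start lay 3480 bp from the summit of the first region.

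**Figure D3:**
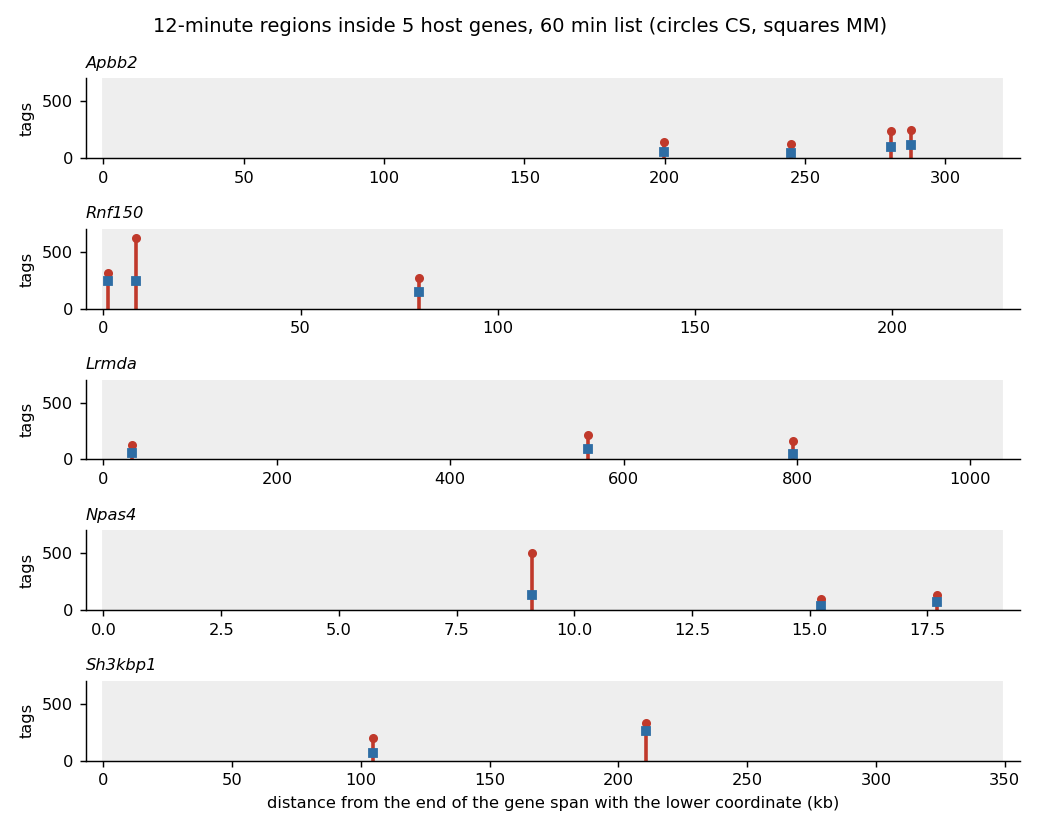
Members inside the 4 host genes with 3 or more members and in Sh3kbp1, which leads the 31 hosts with 2 by fold rank, as the distance of the summit in kb from the end of the gene span with the lower coordinate (horizontal) against tags at 60 min (vertical, CS as red circles on stems and MM as blue squares). The grey band is the gene span; in Apbb2 the 4 members lie in the part with the higher coordinates, and in Npas4 the region with 498 CS tags stands above the others.

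Genes were grouped in 15 lists, chosen with earlier results of these data known, so that their counts are no independent evidence. No list was tested against another. Of 47 extracellular matrix genes 8 held a member (17.0%), of 34 focal adhesion and integrin genes 7 (20.6%), and of 51 actin and myosin genes 6 (11.8%), beside 1.62% of all protein-coding genes. Those genes are long, with list medians of 74674, 84131 and 69104 bp. Per Mb of gene span they held 2.08, 1.68 and 1.32 members, against 0.368 over all protein-coding genes. The length class of protein-coding genes in which these medians fall held 0.503 members per Mb. Regions of 60 min only were in 5 of the matrix genes (10.6%), 10 of the focal adhesion genes (29.4%) and 8 of the actin genes (15.7%), at 1.45, 3.36 and 1.17 per Mb, against 0.941 over all protein-coding genes. With peaks of p at 1e-10 or less alone, the counts were 4, 2 and 3 hosts.

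Among 48 cytosolic chaperones and cochaperones, the only host was Dnajb4 (2.08%), which in these short genes makes 1.07 members per Mb, while 14 had a 12-minute region at a gene end (29.2%). The Dnajb4 summit lay 15 bp from an annotated internal start of that gene. Dnajb4 also had a shared region at a gene end at 12 or 60 min. No gene of the TRiC chaperonin (8 genes), of mitochondrial and endoplasmic reticulum folding (23), of the ubiquitin system and autophagy (25) or of the heat shock factors (5) held a member. Over all protein-coding genes 1.62% held a member, and these lists are too short to tell none from a share that low. None of their genes held a region of 60 min only inside either. In the matrix and the focal adhesion lists no gene had a 12-minute region at an end, and in the actin list 5 did. Over all protein-coding genes 0.994% had one.

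The extracellular matrix hosts included Adamts2, a procollagen peptidase, with 207 CS and 162 MM tags at 12 min and 495 and 366 at 60 min (chr11:50668511-50670504). Timp3, an inhibitor of metalloproteinases, lies inside the span of Syn3, a synapsin gene, and their shared region held 128 and 75 tags at 12 min and 312 and 208 at 60 min. Col4a2, a basement membrane collagen, held 112 and 87 at 12 min and 357 and 189 at 60 min in its leading region (chr8:11384309-11386310). All 3 stood above the members' medians of CS and MM tags in both lists. Listed hosts named after their values were seen were Col4a1, Col5a1, Col12a1, Lamc1 (a laminin chain) and Sparc (a matricellular protein). Without members that overlap a knockout peak of any time, 5 matrix genes were left as hosts.

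Of the focal adhesion genes, Tns3, a tensin that links integrins to actin, held 105 CS and 62 MM tags at 12 min and 448 and 299 at 60 min. Parva, a parvin of the same link, held 146 and 79 at 12 min and 179 and 99 at 60 min. Itgb5, an integrin subunit, held 69 and 29 at 12 min and 205 and 121 at 60 min. The other hosts of that list, named after their values were seen, were Pxn (paxillin), Itgb8, Ptk2b and Lpp. Of the actin list, the Myh9 region of best fold held 301 CS and 199 MM tags at 12 min and 520 and 307 at 60 min. Ablim1, an actin-binding LIM protein, held 91 and 49 at 12 min and 181 and 91 at 60 min. Both stood above the CS medians of 69 at 12 min and 141 at 60 min.

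Signalling genes were hosts in smaller numbers. Of 49 genes of growth factor receptors and MAP kinase signalling 3 held a member (6.12%): Fgfr2, Igf1r and Ephb2, all receptor tyrosine kinases. Igf1r held 182 CS and 83 MM tags at 12 min and 213 and 96 at 60 min, and Fgfr2 held 168 and 126 at 12 min and 268 and 105 at 60 min. Of 40 genes of TGF-beta, BMP and Hippo signalling 3 were hosts (7.50%): Amotl2, an angiomotin, and Tead1 and Wwtr1, a transcription factor and its coactivator (TAZ). Per Mb the TGF-beta, BMP and Hippo list held 1.38 members and the growth factor list 0.419, beside 0.368 over all protein-coding genes. The length class in which the median lengths of both lists fall held 0.503, which is above the growth factor list.

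Of 53 transcription factor and chromatin genes 7 were hosts (13.2%), beside 1.62% of all protein-coding genes. Among them Rora held 78 CS and 58 MM tags at 12 min and 234 and 96 at 60 min, and Tcf12, a bHLH transcription factor, held 117 and 44 at 12 min and 199 and 55 at 60 min. These genes have a median length of 163063 bp and held 0.553 members per Mb, beside 0.368 over all protein-coding genes. The length class in which that median falls had 5.64% of its genes as hosts and held 0.446 members per Mb. Regions of 60 min only were in 11 of the listed genes (20.8%), at 1.11 per Mb against 0.941 over all protein-coding genes. Of 40 AP-1, immediate early and stress response genes Npas4 alone was a host (2.50%), a share near the 1.62% of all protein-coding genes.

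The lists of other cell types gave 2 hosts among 34 neuronal and synaptic genes (5.88%), Otogl and Syn3. They gave 1 among 24 endothelial, blood and epithelial genes (4.17%), Cdh1. Over all protein-coding genes the share was 1.62%. Otogl is an inner ear gene that was put on the list with its place among the regions known, and the Syn3 region also lies in Timp3. The neuronal genes are very long, with a median of 811941 bp, and held 0.0591 members per Mb, while the single region in Cdh1 gave the endothelial, blood and epithelial list 1.31 per Mb. Regions of 60 min only were in 12 of those 34 genes, at 0.621 per Mb, where all protein-coding genes held 0.941 and the longest length class 0.691.

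**Figure D4:**
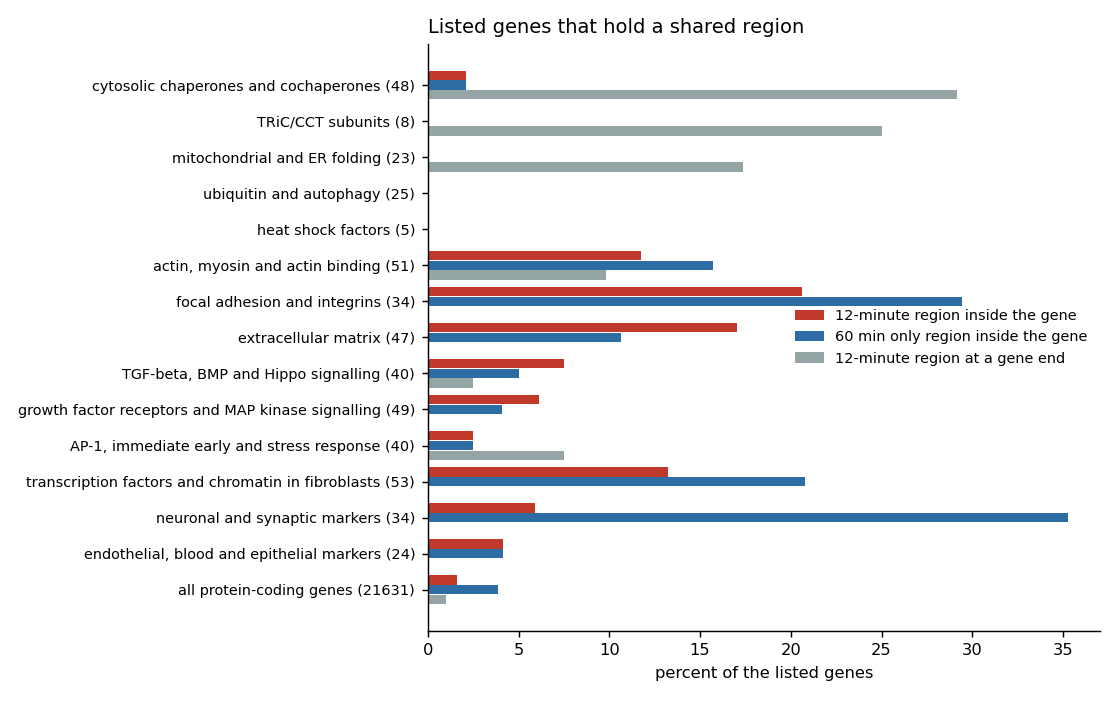
Percent of the genes of each list (number of genes in brackets) that held a 12-minute region inside (red), a 60 min only region inside (blue) or a 12-minute region at a gene end (grey); bars start at 0. Red bars are longest for focal adhesion (20.6%) and extracellular matrix genes (17.0%), and the grey bar is longest for cytosolic chaperones (29.2%).

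In HSF1-/- cells, peaks under the members were few and small. At 60 min a knockout peak of either antibody overlapped 20 of 450 members (4.44%, interval 2.74% to 6.78%). The share of all 60 min regions was 3.33%, and that of 60 min only regions inside genes was 1.83% (interval 1.14% to 2.79%). Over the 3 times together 51 members were overlapped (11.3%, interval 8.56% to 14.6%), where 8.86% of all 60 min regions and 5.50% of the 60 min only regions inside genes were (interval 4.25% to 6.98%). The members are wider, and per Mb covered they held 94.98 knockout peaks against 58.3 in 60 min only regions inside genes, 171 in 12-minute regions at gene ends, 85.3 in those between genes and 89.6 in all 60 min regions. The part of width, depth and the missing control library of the knockout lists was not tested.

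The 57 knockout peaks in question held 4 to 10 tags each, with a median of 5, and none had a p of 1e-10 or less. The lists without heat shock gave 17 of them, those of 12 min 20 and those of 60 min 20. Their summits lay 1 to 2235 bp from that of the member (median 256 bp), 13 of them within 100 bp. The first of the 60 min peaks by the members' fold ranks were in Niban1 (6 tags, 200 bp from the member's summit), Igf1r (5 tags, 103 bp), Septin9 (5 tags, 40 bp), Rnf150 (5 tags, 1242 bp) and Nfkbid (5 tags, 331 bp). At these places the wild type members held 213 to 401 CS tags in the 60 min list. The next were in Prune2 and Gm32822 with 5 tags and Gm4151 with 6. Tags of knockout and wild type peaks are not on 1 scale. The 57 knockout peaks had a median length of 100 bp. The estimated fragment lengths were 33 to 40 bp in the knockout lists, near the tag length of 36 bp. In the wild type heat shock lists they were 107 to 161 bp.

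SRF peaks overlapped 4 members (0.889%, interval 0.243% to 2.26%), against 0.637% of all 60 min regions. They were in Myh9, Mcl1 and Medag at 12 min and in Npas4 at 60 min. The SRF peak in Myh9 had a pileup of 2 tags and lay 724 bp from the HSF1 summit. In Mcl1, which encodes a survival protein of the Bcl-2 family, it had a pileup of 4, the highest −log10 q of the 4 at 3.04, and lay 871 bp away. In Medag it had a pileup of 3 and lay 643 bp away, and in Npas4 a pileup of 3 at 420 bp. The Mcl1 member held 39 CS and 22 MM tags at 12 min and 130 and 90 at 60 min. Of the 4 members, those in Myh9, Medag and Npas4 also overlapped an HSF1-/- peak of 4 to 10 tags, and in Npas4 the SRF peak covers it. Without members over a knockout peak of any time the SRF share was 0.251%. No member had an SRF peak before heat shock or an SRF summit within 250 bp of its own, and at the depth of these SRF libraries a weaker overlap was not detectable.

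**Figure D5:**
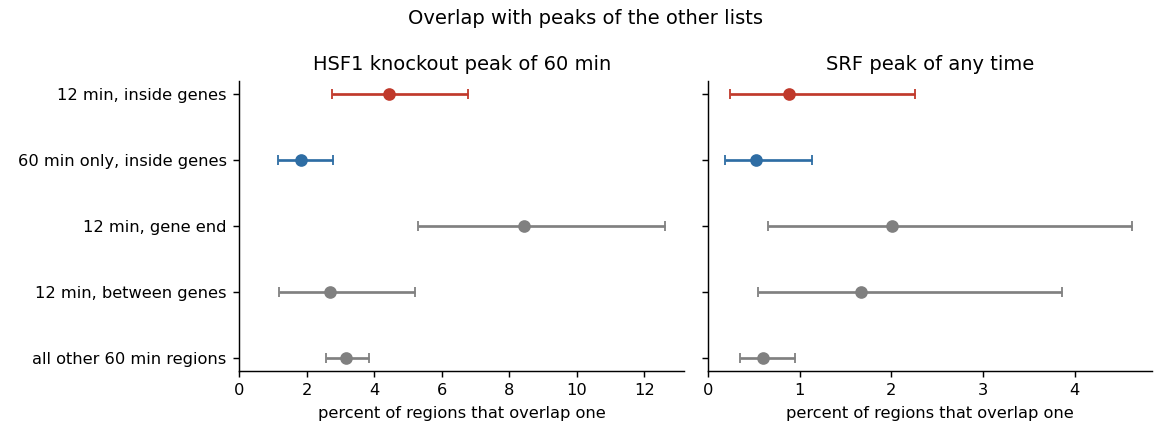
Percent of regions that overlapped an HSF1 knockout peak of 60 min (left) or an SRF peak of any time (right), by class of region, with exact 95% binomial intervals as bars. For the members the shares are 4.44% and 0.889%; the knockout share of 60 min only regions inside genes (1.83%) is lower, with intervals that meet narrowly.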

How the data were processed

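The deposited peak lists were used as the authors made them. For the wild type HSF1 lists MACS 1.4.2 was run with IgG as control and a cutoff of p at 1e-04, on 2 merged replicates with at most 1 tag per position, per the file headers. The HSF1-/- lists were called with no control and name no merge. SRF lists come from MACS2 2.0.9, per the file headers, and MACS2 is also named in the submitters' processing notes. The labels name mm10 as the genome. The aligner was not given in the sources used here, nor its settings.

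Each HSF1 peak has, per the file headers, a tag count, a score (minus 10 times the log10 of p), a fold enrichment (a ratio) and, with a control, an FDR in percent, as deposited by the authors. SRF peaks have a pileup (signal), −log10 p and q and a fold, as deposited by the authors. These are values of single peaks. Sizes were compared within a list only; between lists the values stand side by side, and the order of the same members is described by Spearman's correlation.

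Of 33 samples, the 15 with a peak list were used; nascent RNA, IgG and input libraries were not analysed here. Regions, overlaps of at least 1 bp, positions among 49980 genes of the GRCm38.p6 table (the assembly of mm10) and exact binomial intervals were computed with Python 3.11.15, pandas 2.3.3, numpy 2.4.6 and scipy 1.17.1, and the overlap and position steps were tested on simulated peaks. With 1 list per condition no test was made. Knockout and SRF lists did not enter the choice of members. The planned motif search around every summit needed a genome and was replaced by the RefSeq transcript start windows, which cover no start on chromosome 18. All 527 listed genes were found in the table, and the results of some of them and of 1 list are not reported here.

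The members and lists were chosen with earlier results of these data known. Genes named by rule were the 12 members of best mean CS and MM fold rank at 60 min, up to 3 per list, the 5 hosts with most members (ties by the best fold rank), up to 8 members over an SRF or a 60 min knockout peak, the 3 regions on each side of the 1 kb limit, the 3 with most tags in each list, and the 3 widest and the 3 farthest from a gene end.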

Additional observations from a re-analysis of the deposited data

How the results depend on the processing

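The number of members was 167 with peaks of p at 1e-10 or less and 306 to 600 under the other choices of overlap, limit, genes, FDR, antibody, summit and earlier or knockout peaks. The share with a host bound at a gene end was 12.1% at a limit of 500 bp for members. The limit for gene ends stayed at 1 kb, so that share includes members that count as their own host's end region. The median distance to a gene end was 8655 bp at a limit of 500 bp, 13876 bp at 2 kb, 17906.5 bp at 5 kb and 20007 bp with protein-coding genes only, where the limit itself sets the lowest distance. The knockout share was 2.61% with MM peaks alone, 11.3% with knockout peaks of any time and 0 with knockout peaks of p at 1e-10 or less. The SRF share was 0.222% at a q of 0.05 or less, 0.251% without members over any knockout peak, and 0 for an SRF summit within 250 bp.

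Hosts in the matrix, focal adhesion and actin lists numbered 4, 2 and 3 at p of 1e-10 or less, the actin hosts 10 with CS peaks alone, and the matrix hosts 5 without members over any knockout peak. Except for fewer peaks at stricter limits, the cause of these shifts was not tested. The other 114 recomputed values stayed within the interval or within 1.5 times the main count. The windows of 100 and 600 bases around summits were not run, since no genome was used here.

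No paired analysis was possible because there is 1 list per genotype, time and antibody. The SRF libraries held 0.751 to 1.55 M (mega) tags, which limits the SRF overlap, and the knockout lists have no control library.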
